A study of Homo sapiens with 21 samples.

Results

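The mitochondrial ribosomal protein genes comprised the 77 human genes whose symbols consist of MRPL or MRPS, a number and at most 1 letter from A to C, and that reached at least 10 estimated counts in 3 or more of the 9 RNA-seq libraries. Antisense and pseudogene symbols, which go on after the number, are not among them. All 77 genes of the gene table with such a symbol passed, of 13581 genes in the series that reached the same minimum. By symbol, 49 belonged to the large subunit and 28 to the small subunit. The libraries came from 786-O, an established human clear cell renal carcinoma line. The knockout groups were cells infected with JMJD6 guide sg2 and cells infected with JMJD6 guide sg4, and the third group was infected with the control guide sgCtrl, with 3 libraries each. The labels say that RNA was taken in triplicate, and do not say whether the replicates were separate cultures or whether the knockout cells were clones or pools, so the p-values measure the spread between these libraries. The series' transfection text describes siRNA, while the titles name the guides, and the groups follow the titles. The aim given by the series text was to compare cells with and without JMJD6, a 2-oxoglutarate-dependent oxygenase.

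The mitochondrial ribosome translates the few mRNAs encoded by mitochondrial DNA, all of which specify core subunits of the respiratory chain and ATP synthase. Its ribosomal RNAs are transcribed inside the organelle, whereas every protein of the human particle is encoded in the nucleus, translated in the cytosol and imported. The small subunit decodes the mRNA, and the large subunit joins amino acids and passes the chain through an exit tunnel to the inner membrane. Clear cell renal carcinoma is known for loss of VHL and for a metabolism shifted away from respiration.

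Each library held between 14224263 and 16300347 estimated counts. JMJD6 itself, in CPM (counts scaled to normalised library sizes), was 17.1, 16.1 and 17.3 in the sg2 libraries, 11.7, 14.4 and 10.7 in the sg4 libraries, and 41.5, 40.9 and 44.4 in the sgCtrl libraries. Every knockout library lay below every control, with a log2 fold change of −1.56 ± 0.086 (SE) and an edgeR adjusted p of 5.41e-12. Of 7 renal carcinoma markers, 6 were present at 16.3 TPM (a relative transcript level per length) or more in every library, and CA9, a hypoxia-induced marker of this tumour, had at most 22 counts. Of 7 leukocyte and endothelial markers, CD3E and CDH5 were at 0 in all libraries, and PTPRC, VWF and PECAM1 were at most 0.073, 0.055 and 0.134 TPM. The list summed to 52.9 to 61.1 TPM with sg2, 53.9 to 63.1 TPM with sg4 and 66.4 to 86.6 TPM with sgCtrl, most of it CD68. The 5 fibroblast markers summed to 6.57 to 8.33 TPM with sg2, 5.91 to 9.93 TPM with sg4 and 9.39 to 34.7 TPM with sgCtrl. The highest of these was sgCtrl library 1 alone, in which LUM stood at 18.5 TPM, COL1A2 at 7.49 TPM and DCN at 5.31 TPM. The other controls summed to 9.39 and 10.5 TPM. COL1A2 and DCN were at 1.02 and 0.74 TPM in sg4 library 3, and at most 0.53 and 0.24 TPM in the remaining libraries. The leukocyte and endothelial sum was lower in every knockout library than in every control, but CSF1R of that list went the other way. It was at 2.08 to 2.57 TPM with sg2, 1.585 to 2.01 TPM with sg4 and 1.13 to 1.25 TPM with sgCtrl. The sg4 and sgCtrl fibroblast ranges overlapped, and the part of these markers in the results below was not tested. In bulk RNA, fewer cells of a type and less RNA per cell cannot be told apart.

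All mitochondrial ribosomal protein genes were well counted, with at least 118 and at most 2616 estimated counts per gene and library. Levels between genes were compared in TPM, which is per transcript length. The median gene had 75.6 TPM with sg2, 73.5 TPM with sg4 and 77.7 TPM with sgCtrl, and group means spanned 12.8 to 268.4 TPM, 11.8 to 306.9 TPM and 11.03 to 303.7 TPM in these groups. The proteins are mostly present in equal number in the particle, and their mRNAs differed widely in level. In the large subunit, the highest control means were those of MRPL41 (303.7 ± 9.99 TPM), MRPL37 (247 ± 3.12 TPM) and MRPL33 (228 ± 45.2 TPM), and MRPL37 and MRPL33 overlapped within their spread (SD, n = 3 each). MRPL12 (228 ± 11.03 TPM) was level with MRPL33. The lowest were MRPL22 (11.03 ± 0.434 TPM), which encodes a protein of the exit tunnel, MRPL19 (20.2 ± 0.828 TPM) and MRPL57 (26.6 ± 1.25 TPM), which did not differ beyond its spread from MRPL30 (27.1 ± 0.969 TPM). In the small subunit, MRPS34 (245 ± 23.8 TPM), MRPS24 (238 ± 13.97 TPM) and MRPS6 (237 ± 5.48 TPM) led and did not differ beyond their spread. MRPS25 (14.7 ± 1.59 TPM), MRPS31 (18.7 ± 1.40 TPM) and MRPS11 (19.8 ± 0.542 TPM) were the lowest of that subunit, and MRPS31 and MRPS11 overlapped within their spread. The order in TPM rests on the length by which counts are divided, 7537 bases for MRPL19 and 206 for MRPL33. In CPM, the control means of MRPL19 and MRPL33 were 79.5 and 22.7, the reverse of their order in TPM. MRPL37 (161 CPM) remained high and MRPL22 (16.4 CPM) low.

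**Figure D1:**
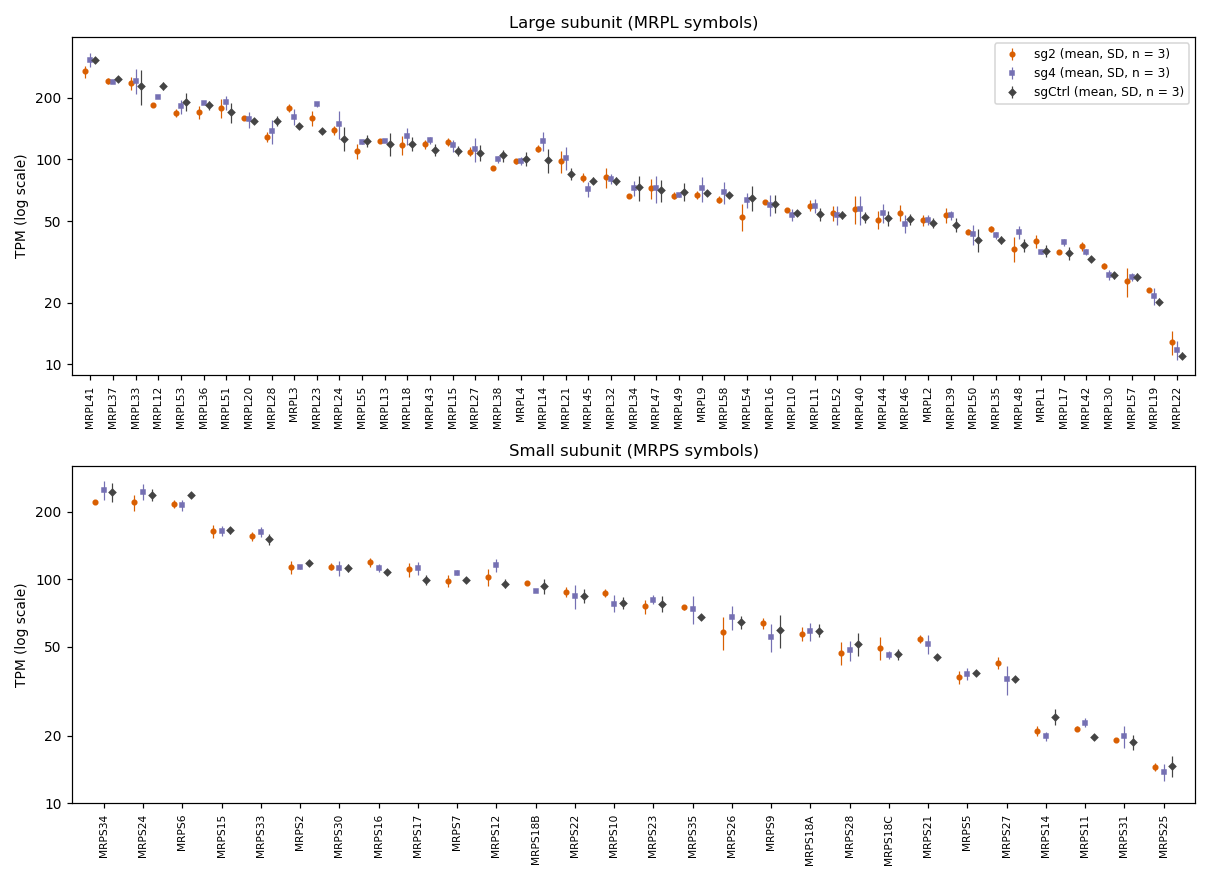
Level of each mitochondrial ribosomal protein mRNA in TPM on a log axis, by subunit and ordered by the control mean. Points are means of 3 libraries with sg2, sg4 and sgCtrl and bars are SD, and the spread between genes is far larger than that between groups.

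Summed over the large subunit, the mRNAs held 4738, 4691 and 4629 TPM in the sg2 libraries, 4755, 4923 and 4943 TPM in the sg4 libraries, and 4788, 4763 and 4547 TPM in the sgCtrl libraries. The small subunit summed to 2557, 2542 and 2519 TPM with sg2, 2589, 2559 and 2618 TPM with sg4, and 2584, 2588 and 2467 TPM with sgCtrl. In both sums the groups overlapped. The ratio of large to small was 1.85 ± 0.0074 with sg2, 1.88 ± 0.044 with sg4 and 1.85 ± 0.0065 with sgCtrl (SD, n = 3 each), so it did not differ beyond the spread between libraries. MRPS30 and MRPS18A carry small subunit symbols, although their proteins sit in the large subunit. With both counted as large, the ratio was 2.05 ± 0.0090 with sg2, 2.09 ± 0.040 with sg4 and 2.05 ± 0.017 with sgCtrl. MRPS30 itself averaged 114 ± 4.32 TPM with sg2, 112 ± 8.92 TPM with sg4 and 113 ± 4.75 TPM with sgCtrl, and MRPS18A averaged 57.1 ± 3.94 TPM, 58.4 ± 5.38 TPM and 59.0 ± 4.03 TPM in these groups (SD, n = 3 each).

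Comparing both JMJD6 guides with the control guide, 12 of 77 mitochondrial ribosomal protein genes rose and 1 fell (quasi-likelihood test of edgeR, p under 0.05 after Benjamini-Hochberg adjustment over 13530 genes). Among all genes tested, 6.92% were called higher and 6.95% lower. The genes that rose were MRPL23, MRPL21, MRPL14, MRPL3, MRPL42, MRPL19, MRPL35 and MRPL15 of the large subunit and MRPS21, MRPS12, MRPS11 and MRPS16 of the small subunit, and MRPL12 fell. The changes were small: those called higher lay between 0.15 for MRPS16 and 0.40 for MRPL23 on the log2 scale. The median log2 fold change was 0.10 over the 77 genes and −0.01 over all genes tested, and 66 of 77 were above 0. The large subunit had a median of 0.12 with 8 of 49 called higher and 1 lower, and the small subunit a median of 0.07 with 4 of 28 called higher and 0 lower. With MRPS30 and MRPS18A counted as large, the medians were 0.11 and 0.09. By unadjusted p under 0.05, 25 of the 77 were higher and 2 lower. No share of all genes is given for unadjusted p, so these counts cannot be set beside all genes. DESeq2 called 12 higher and 1 lower, against 7.09% and 6.61% of all genes. The number called higher fell to 2 without sgCtrl library 3, to 5 without sgCtrl library 1, to 5 without sg2 library 1 and to 7 without sg4 library 3. Fewer libraries lower the power for every gene, and the share of all genes called in these fits is not given here. Whether the fall is particular to the members is therefore not known. The genes not called ranged from −0.19 to 0.26 on the log2 scale, and their approximate 95% intervals from −0.36 to 0.45. These intervals were taken from the SE by a normal approximation and are somewhat narrower than the edgeR test implies.

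**Figure D2:**
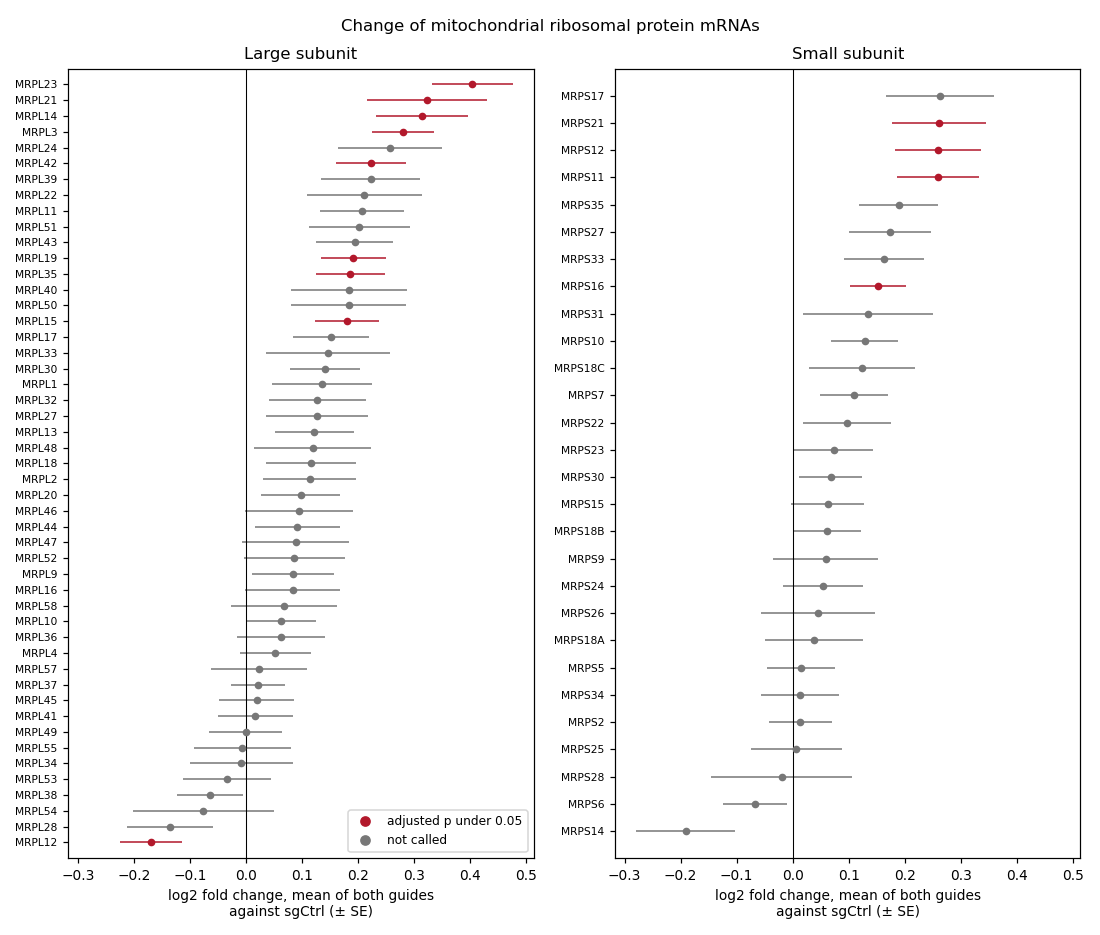
Log2 fold change of each mitochondrial ribosomal protein gene, mean of both JMJD6 guides against sgCtrl, with SE, by subunit. The 13 called genes are in red, 12 to the right of 0 and MRPL12 to the left, and most of the others also lie to the right of 0.

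MRPL23 had the largest change, and its protein lies beside the exit tunnel of the large subunit. It stood at 38.3, 36.0 and 42.8 CPM in the sg2 libraries, 45.3, 47.0 and 45.2 CPM in the sg4 libraries, and 33.1, 32.1 and 30.7 CPM in the sgCtrl libraries. Every knockout library lay above every control, and the sg4 libraries above the sg2 libraries. The log2 fold change was 0.29 ± 0.083 with sg2 (SE, edgeR adjusted p = 0.0251), 0.52 ± 0.082 with sg4 (edgeR adjusted p = 0.000268) and 0.40 ± 0.072 in the mean of both (edgeR adjusted p = 0.000458), a 1.32-fold higher level. At matched length, as described below, the sg2 change was 0.20 and not called (edgeR adjusted p = 0.122), and the sg4 change was 0.38 ± 0.081 (SE, edgeR adjusted p = 0.00439). The difference between the guides was 0.23 on the log2 scale and was not called (edgeR adjusted p = 0.383).

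MRPL3 encodes a protein whose bacterial counterpart reaches towards the peptidyl transferase centre, and variants in it are known to cause mitochondrial cardiomyopathy. Its mRNA was at 132, 146 and 141 CPM in the sg2 libraries, 136, 118 and 138 CPM in the sg4 libraries, and 111, 112 and 110.2 CPM in the sgCtrl libraries. The controls lay close together and below all knockout libraries, of which sg4 library 2 was the lowest. The change was 0.33 ± 0.063 with sg2 (SE, edgeR adjusted p = 0.00122), 0.23 ± 0.063 with sg4 (edgeR adjusted p = 0.0224) and 0.28 ± 0.055 in the mean of both (edgeR adjusted p = 0.00122) on the log2 scale. MRPL23 and MRPL3 were the 2 members called higher with each guide separately, against 2.76% of all genes, and none was called lower with each (2.22% of all genes). Their calls in the mean of both guides remained in each of the 9 fits without 1 library, with edgeR adjusted p up to 0.00497 for MRPL23 and up to 0.0101 for MRPL3. Without sgCtrl library 1, 2 or 3, no member was called with each guide separately, and the guides share these controls. Without sg2 library 1, sg2 library 3 or sg4 library 3 that count was 1. No share of all genes is given for these smaller fits.

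MRPL14, a protein of the face that meets the small subunit, was at 41.0, 42.4 and 39.8 CPM in the sg2 libraries, 44.6, 49.9 and 41.6 CPM in the sg4 libraries, and 36.3, 38.7 and 29.1 CPM in the sgCtrl libraries. No knockout library overlapped the controls, of which library 3 was far below the others. The mean change was 0.31 ± 0.082 (SE, edgeR adjusted p = 0.0116), and without sgCtrl library 3 it was 0.20 and not called (edgeR adjusted p = 0.139). The gene span of MRPL14 overlaps that of TMEM63B, which had 1217 counts on average. Reads may not be told apart where transcripts overlap, and overlap of their exons was not examined. MRPL42, a protein found in mitochondrial but not in bacterial ribosomes, was at 55.1, 61.6 and 56.2 CPM with sg2, 55.6, 54.4 and 57.6 CPM with sg4, and 48.3, 49.1 and 48.3 CPM with sgCtrl. All knockout libraries were above the controls, which lay close together. Its change was 0.22 ± 0.062 (SE, edgeR adjusted p = 0.0166), with adjusted p of 0.0701 without sgCtrl library 1 and 0.0607 without sgCtrl library 3 (edgeR). MRPL19, with the longest mRNA of the family, was at 93.1, 93.9 and 89.3 CPM with sg2, 96.3, 84.2 and 88.0 CPM with sg4, and 81.5, 83.0 and 74.0 CPM with sgCtrl. The lowest knockout library, sg4 library 2, lay just above the highest control. Its change was 0.19 ± 0.058 (SE, edgeR adjusted p = 0.0284), and the call was lost without sg2 library 1, sgCtrl library 1 or sgCtrl library 3 (edgeR adjusted p of 0.0572, 0.0619 and 0.190).

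In the small subunit, MRPS11, a platform protein near the exit of the mRNA, was at 34.9, 33.7 and 37.5 CPM in the sg2 libraries, 40.9, 37.9 and 37.9 CPM in the sg4 libraries, and 32.1, 31.9 and 28.9 CPM in the sgCtrl libraries. No knockout library overlapped the controls. The mean change was 0.26 ± 0.073 (SE, edgeR adjusted p = 0.0188), and without sgCtrl library 3 it was 0.21 and not called (edgeR adjusted p = 0.122). MRPS12, the counterpart of the bacterial protein in which streptomycin resistance arises, was at 44.6, 39.7 and 37.5 CPM with sg2, 42.6, 50.9 and 47.3 CPM with sg4, and 36.6, 38.7 and 34.0 CPM with sgCtrl. Its sg2 libraries overlapped the controls, and its sg4 libraries did not. The change was 0.26 ± 0.076 in the mean of both (SE, edgeR adjusted p = 0.0240), and the call was lost without sg2 library 1, sg4 library 2, sgCtrl library 1 or sgCtrl library 3 (edgeR adjusted p from 0.0547 to 0.140). MRPS21 averaged 0.26 ± 0.084 higher (SE, edgeR adjusted p = 0.0374) and MRPS16, in which a variant is known to cause a fatal mitochondrial disease, 0.15 ± 0.049 higher (SE, edgeR adjusted p = 0.0392), both on the log2 scale and with 6 of 6 knockout libraries above every control. Each kept its call in 3 of the 9 fits without 1 library, with edgeR adjusted p up to 0.130 for MRPS21 and up to 0.192 for MRPS16.

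Of the other large subunit genes called higher, MRPL15 changed by 0.18 ± 0.057 (SE, edgeR adjusted p = 0.0359) and MRPL35 by 0.19 ± 0.062 (SE, edgeR adjusted p = 0.0452), with 6 of 6 knockout libraries above every control. MRPL21 changed by 0.32 ± 0.11 (SE, edgeR adjusted p = 0.0430), with 4 of 6 knockout libraries above every control. It was at 18.9 to 24.8 CPM with sg2, 18.9 to 25.8 CPM with sg4 and 16.3 to 19.2 CPM with sgCtrl. The calls remained in 3 of the 9 fits without 1 library for MRPL15, and in 2 of 9 for MRPL35 and MRPL21, with edgeR adjusted p up to 0.140, 0.160 and 0.198 in this order. Across the 13 called genes, only MRPL23 and MRPL3 kept their call without sgCtrl library 3.

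MRPL12 was the gene that fell, and it encodes the stalk protein that brings translation factors to the ribosome and that is also known to bind the mitochondrial RNA polymerase. Its mRNA was at 71.2, 70.2 and 73.9 CPM in the sg2 libraries, 77.3, 82.5 and 81.1 CPM in the sg4 libraries, and 81.0, 90.0 and 85.0 CPM in the sgCtrl libraries. The sg2 libraries lay below every control, and the sg4 libraries overlapped the controls. It fell by 0.25 ± 0.064 with sg2 (SE, edgeR adjusted p = 0.0127), changed by −0.09 ± 0.064 with sg4 (edgeR adjusted p = 0.436), and fell by 0.17 ± 0.055 in the mean of both (edgeR adjusted p = 0.0394). The call of the mean remained in 2 of the 9 fits without 1 library, those without sg2 library 3 or sg4 library 2, and was otherwise lost with edgeR adjusted p from 0.0545 to 0.220 and a change from −0.20 to −0.13. Its level, per length, was 184 ± 4.69 TPM with sg2, 202 ± 3.53 TPM with sg4 and 228 ± 11.03 TPM with sgCtrl (SD, n = 3 each).

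**Figure D3:**
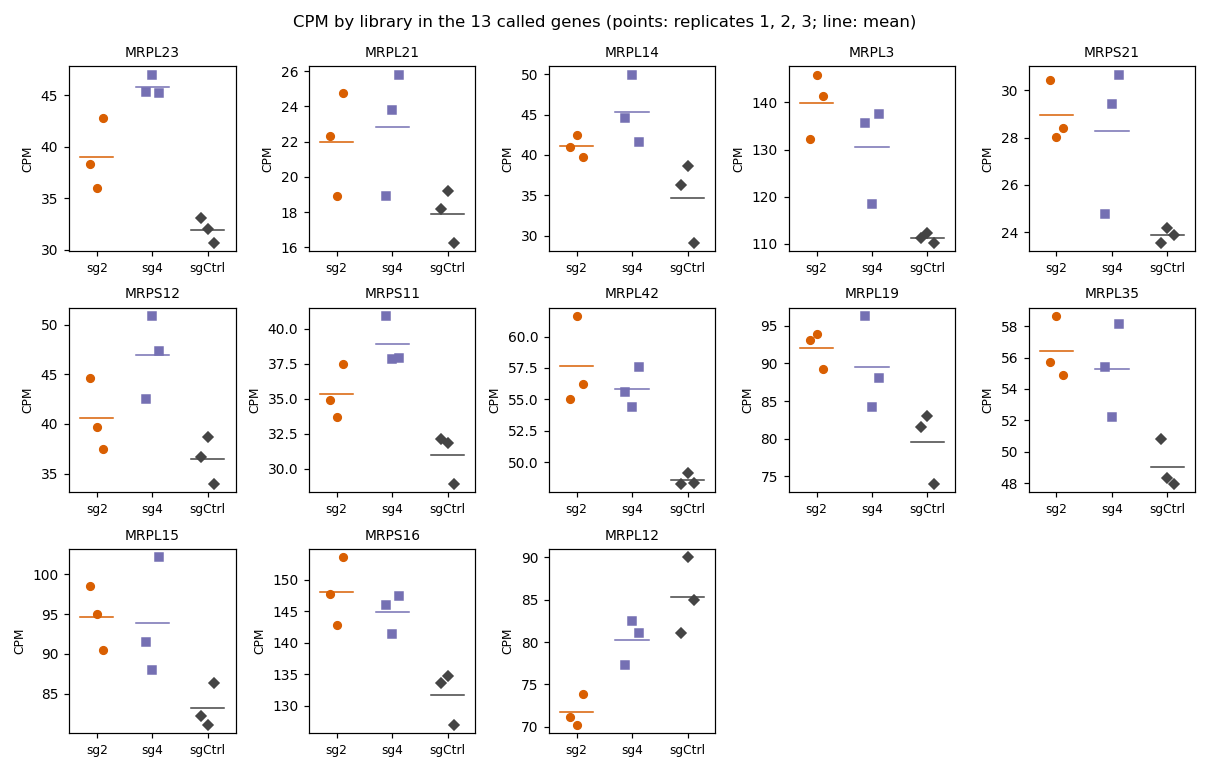
CPM of the 13 called genes in each library with sg2, sg4 and sgCtrl, with lines at the group means and an axis for each gene that does not start at 0. In 10 panels the knockout points lie above all control points, in MRPL21 and MRPS12 the groups overlap, and MRPL12 is lower in the sg2 libraries.

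With sg2 alone, 5 members rose, namely MRPL3, MRPL42, MRPL23, MRPS27 and MRPL19, and MRPL12 fell, against 5.00% of all genes called higher and 5.36% lower. With sg4 alone, 6 members rose, namely MRPL23, MRPS12, MRPL14, MRPS11, MRPL3 and MRPL17, and none fell, against 4.65% and 3.78% of all genes. For sg4 lower, 0 members had an unadjusted edgeR p under 0.05. DESeq2 also called 0, against 3.80% of all genes. MRPS27, a pentatricopeptide repeat protein of the small subunit, was at 57.3, 53.0 and 58.03 CPM with sg2, 55.5, 42.9 and 48.5 CPM with sg4, and 45.2, 48.7 and 45.6 CPM with sgCtrl. Its sg2 libraries lay above the controls and its sg4 libraries spanned them. MRPL17, a protein near the exit tunnel, was at 39.3, 38.6 and 38.8 CPM with sg2, 45.1, 45.9 and 43.8 CPM with sg4, and 34.8, 40.5 and 37.5 CPM with sgCtrl, so that the sg4 libraries stood above all others. The sg2 call of MRPS27 was lost without sg2 library 1 or 3 or sgCtrl library 1 or 3 (edgeR adjusted p from 0.0923 to 0.126). The sg4 call of MRPL17 was lost without sg2 library 1, any sg4 library, or sgCtrl library 1 or 3 (edgeR adjusted p from 0.0561 to 0.188). The difference between the guides was tested directly, and 0 members were called higher or lower in sg4 against sg2, against 0.0443% and 0.0148% of all genes. By unadjusted p under 0.05, 10 were higher and 1 lower in that comparison, for which no share of all genes is given. DESeq2 called 0, against 0.133% and 0.0591% of all genes. A call with 1 guide and not the other is therefore no sign that the guides differ. Libraries of sg2 did not overlap the controls in 18 members that were higher and 3 that were lower, against 14.5% and 14.4% of all genes. For sg4 these counts were 18 and 0, against 13.2% of all genes in each direction, and for all 6 knockout libraries they were 11 and 0, against 7.76% and 7.18%. With 1 library left out, the sg2 count called higher lay between 1 and 7 and the sg4 count between 1 and 8. It was 1 with sg2 without sgCtrl library 1 or 3, 2 without sg2 library 1, and 3 without sg2 library 2, sg2 library 3 or sgCtrl library 2, and it was 1 with sg4 without sgCtrl library 3. MRPL12 lost its call with sg2 without sg2 library 1, sg2 library 2 or sgCtrl library 2. The share of all genes called in these fits is not given here, so the counts cannot be set beside it.

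The libraries differed in how counts depended on transcript length, and most mitochondrial ribosomal protein mRNAs are short. Their median effective length (transcript length less a correction for fragment size) was 881 bases, 850 in the large and 1091 in the small subunit, against 2751 for all genes tested. A smooth curve of each library's log2 ratio on length, over all genes, was higher at 500 than at 4000 bases by 0.05, −0.02 and 0.01 in the sg2 libraries, −0.04, 0.12 and 0.16 in the sg4 libraries, and −0.04, −0.01 and −0.18 in the sgCtrl libraries. The 3 groups overlapped, and short mRNAs were counted high in sg4 libraries 2 and 3 and low in sgCtrl library 3. The median log2 ratio of the 77 genes to the control mean was 0.14, 0.10 and 0.07 in the sg2 libraries, 0.07, 0.12 and 0.16 in the sg4 libraries, and 0.02, 0.04 and −0.07 in the sgCtrl libraries. It was lowest in sgCtrl library 3 and highest in sg4 library 3. The summed CPM of the 77 genes was 3613, 3602 and 3579 with sg2, 3620, 3670 and 3813 with sg4, and 3466, 3491 and 3269 with sgCtrl, so that every knockout library lay above every control. Summed TPM, which is divided by effective length, was 7296, 7233 and 7147 with sg2, 7344, 7482 and 7561 with sg4, and 7372, 7351 and 7014 with sgCtrl, and the groups overlapped. In TPM the typical gene was also lower in the knockout groups. On the scale of log2(TPM + 1), the median change of all genes tested was −0.03 with sg2 and −0.08 with sg4. That of the 77 genes was 0.04 with each guide. What sets the sums in CPM and TPM apart was not tested. The size correction itself was 269 and 270.0 bases in sg2 libraries 1 and 3 and from 291 to 298 bases in the others.

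**Figure D4:**
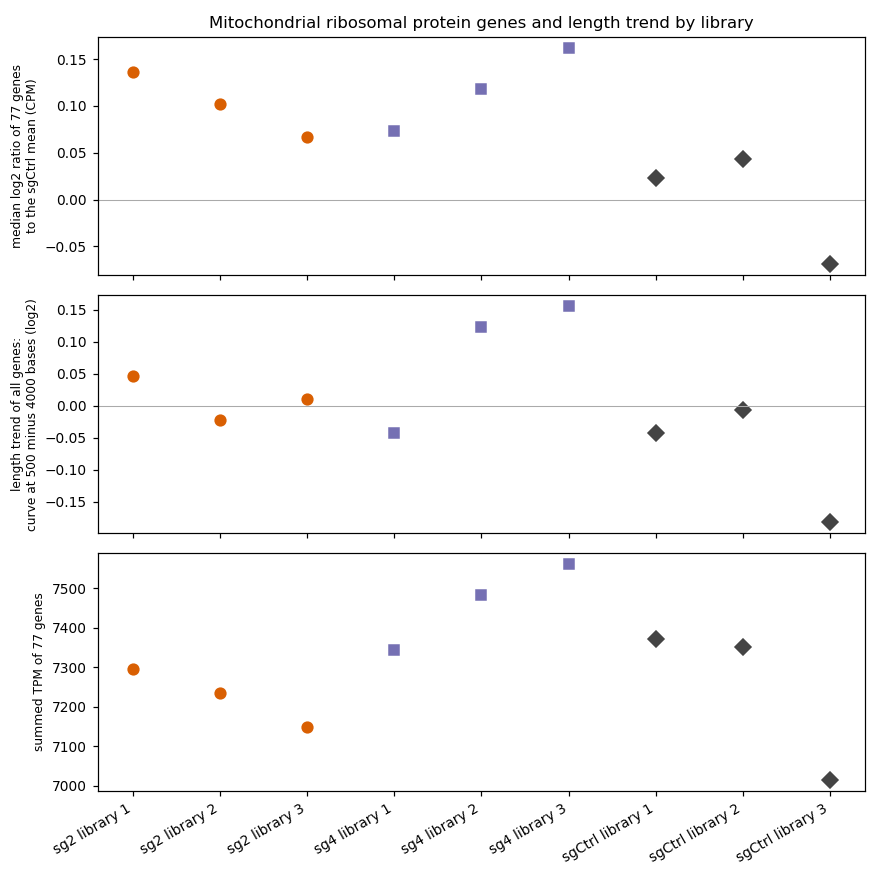
For each library, the median log2 ratio of the 77 genes to the control mean in CPM, the length trend of all genes (curve at 500 minus curve at 4000 bases, log2), and the summed TPM of the 77 genes on an axis that does not start at 0. SgCtrl library 3 is lowest in all 3 panels and sg4 library 3 highest.

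To compare at matched length, the curve of each library was entered into the edgeR fit as an offset. The median change of the 77 genes was then 0.06 with sg2, 0.05 with sg4 and 0.04 in the mean of both, against 0.09, 0.13 and 0.10 without it. With sg2, 7 members were called higher and 1 lower, against 5.82% and 5.72% of all genes. With sg4, 7 were called higher and 0 lower, against 4.60% and 3.45%. In the mean of both guides, 9 members were called higher and 2 lower, against 7.38% and 6.78% of all genes, and in sg4 against sg2 the counts were 0 and 0, against 0.0665% and 0.0222%. The 9 genes MRPL23, MRPL3, MRPL14, MRPL42, MRPS11, MRPL19, MRPL15, MRPS16 and MRPL35 kept their call, as did MRPL12. MRPL21, MRPS12 and MRPS21 lost it, with changes of 0.19, 0.19 and 0.22 and edgeR adjusted p of 0.187, 0.0622 and 0.0571. MRPL28 was called lower with the offset at −0.19 ± 0.065 (SE, edgeR adjusted p = 0.0469), and its change without the offset was −0.14 ± 0.076 (edgeR adjusted p = 0.266). MRPL28 was at 62.5, 55.7 and 58.6 CPM with sg2, 52.7, 69.0 and 71.2 CPM with sg4, and 67.4, 72.7 and 62.7 CPM with sgCtrl, with the sg2 libraries just below the controls, sg4 library 1 below them and the other sg4 libraries among them. MRPL12 moved to −0.24 ± 0.053 (SE, edgeR adjusted p = 0.00287) and MRPL23 to 0.29 ± 0.072 (edgeR adjusted p = 0.00772), while MRPL3 was at 0.27 ± 0.054 (edgeR adjusted p = 0.00115). Called higher with each guide at matched length were MRPL3 and MRPL19, against 2.93% of all genes, and none was called lower with each, against 2.34%. The large and small subunits had medians of 0.05 and 0.04.

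Set beside other genes of like length, the family differed by length class. Of the 14 members under 500 bases the median change without the offset was 0.09, against 0.13 for other genes, and of the 27 from 500 to 1000 bases it was 0.10 against 0.06. The 24 members from 1000 to 2000 bases had a median of 0.08 against 0.01. The 12 members over 2000 bases had a median of 0.16 against −0.02, and all 12 were above 0, as were 45.0% of other genes of that class. These 12 were MRPS11, MRPL42, MRPL22, MRPL19, MRPL35, MRPS27, MRPL17, MRPS16, MRPL30, MRPL57, MRPS5 and MRPS25, with changes from 0.01 to 0.26, of which 5 were called higher, as were 5.41% of other genes in the class. Under 500 bases, 2 of 14 members were called higher and 0 lower, against 27.2% and 1.45% of other genes. From 500 to 1000 bases, 2 of 27 were called higher and 1 lower, against 12.6% and 2.47%. From 1000 to 2000 bases, 3 of 24 were called higher and 0 lower, against 7.14% and 5.36%. At matched length, the medians from the shortest to the longest class were −0.07, 0.04, 0.06 and 0.17. Among the shortest mRNAs, MRPL54, MRPL53, MRPL41, MRPS28 and MRPL55 then had changes from −0.24 to −0.14, and none of them was called. Without sg4 libraries 2 and 3 and sgCtrl library 3, the class medians were −0.01, 0.04, 0.07 and 0.14, and 10 of the 12 longest were above 0. Over the 77 genes, the change correlated with log2 effective length at r = 0.04 without the offset and r = 0.46 with it (Spearman rho 0.08 and 0.43), given as a description over genes that share the same libraries. Without the members over 2000 bases the value with the offset was 0.31, and without those under 500 bases 0.38.

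**Figure D5:**
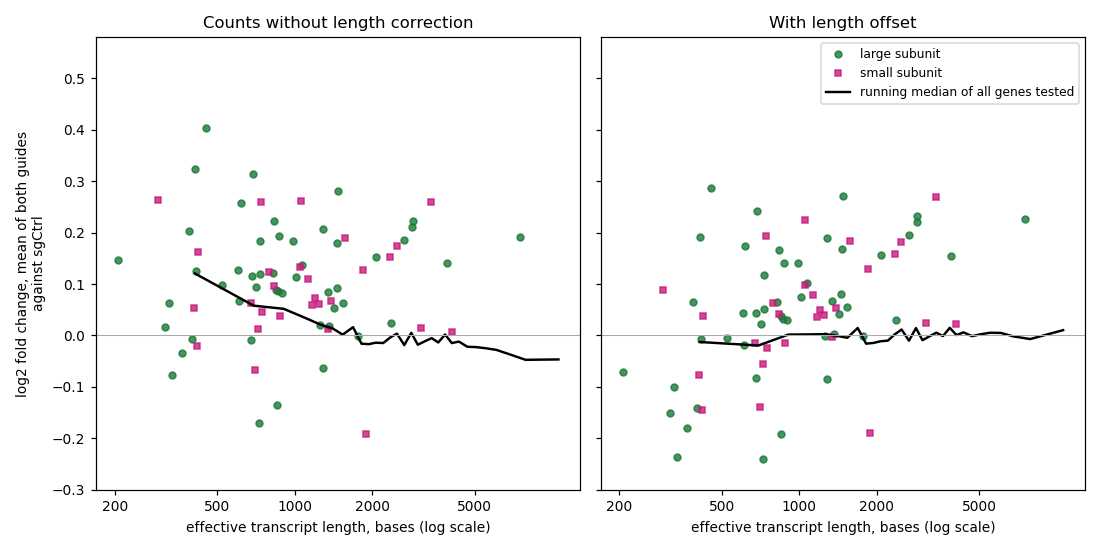
Log2 fold change of the 77 genes, mean of both guides against sgCtrl, by effective transcript length on a log axis, without and with the length offset. The line is the running median of all genes tested, which slopes down on the left and is flat on the right, and the 12 genes over 2000 bases lie above 0 in both panels.

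Transcript use was examined in the 39 members that had at least 2 RefSeq transcripts with over 10% of their counts each, which gave 113 transcripts. The share of 20 transcripts with sg2 and of 26 with sg4 did not overlap the controls, and for 10 this held with both guides in the same direction. These were 17.7%, 23.0% and 8.85% of the transcripts, against 12.4%, 11.5% and 3.63% of 25754 transcripts of other genes chosen in the same way. The comparison was not matched for depth: every member had at least 118 counts in each library, and the other genes needed only 10 in 3 libraries. No test was made of this difference, since shares within a gene are not independent and both guides share the controls. In MRPS21, the 1105-base transcript took 46.4%, 50.1% and 45.4% of the counts with sg2, 42.6%, 44.9% and 49.1% with sg4, and 41.1%, 42.6% and 37.5% with sgCtrl. The knockout shares were all higher, if narrowly so in sg4 library 1, and the other transcript, of 1541 bases, was lower by as much. In MRPL42, the 3139-base transcript took 25.6%, 25.4% and 27.7% with sg2, 25.3%, 29.0% and 25.5% with sg4, and 33.8%, 31.3% and 32.1% with sgCtrl, lower in every knockout library. In MRPL55, the 757-base transcript took 15.8% with sg2, 16.04% with sg4 and 21.6% with sgCtrl on average, and the 690-base transcript 19.8%, 21.1% and 15.5%. These transcripts were picked after their values were seen, and shares estimated for transcripts that share exons carry an error that these files do not give.

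Promoter sequences from RefSeq on GRCh38.p14 were matched by symbol for 69 of the 77 genes, as 250 bases before to 50 after the start of each gene. Nuclear genes for mitochondrial proteins are known to be served by the factors NRF1, GABP of the ETS family and YY1. The ETS letters CCGGAAG, searched on both strands, occurred in 29 of 69 promoters (42.0%) and in 19.2% of the promoters of other genes tested. The YY1 letters AAGATGGC occurred in 20 (29.0%) against 5.16%, and the NRF1 letters, GCGCA and GCGC with 1 free base between them, in 8 (11.6%) against 11.9%. The E-box CACGTG occurred in 6 (8.70%) against 10.0%, and the GC box GGGGCGGGG in 17 (24.6%) against 27.6%. The ETS motif was found in 17 of 42 large and 12 of 27 small subunit promoters, and the YY1 motif in 12 and 8. A match describes letters in the window and is not evidence of binding. Promoters are shown for MRPL3, called with both guides, and for MRPS11 and MRPL12, which were picked after their values were seen as a gene of the other subunit and as the gene that fell. They lie at chr3:131502922-131503221 on the minus strand, chr15:88467458-88467757 on the plus strand and chr17:81703117-81703416 on the plus strand, and capitals mark the ETS match 32 bases before the start of MRPL3. The MRPS11 and MRPL12 windows held none of the 5 motifs.
MRPL3: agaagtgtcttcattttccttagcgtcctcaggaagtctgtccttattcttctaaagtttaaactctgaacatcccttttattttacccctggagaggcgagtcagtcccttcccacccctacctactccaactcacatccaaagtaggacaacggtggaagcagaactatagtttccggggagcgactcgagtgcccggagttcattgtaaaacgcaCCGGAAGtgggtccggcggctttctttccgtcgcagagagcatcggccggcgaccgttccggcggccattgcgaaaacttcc
MRPS11: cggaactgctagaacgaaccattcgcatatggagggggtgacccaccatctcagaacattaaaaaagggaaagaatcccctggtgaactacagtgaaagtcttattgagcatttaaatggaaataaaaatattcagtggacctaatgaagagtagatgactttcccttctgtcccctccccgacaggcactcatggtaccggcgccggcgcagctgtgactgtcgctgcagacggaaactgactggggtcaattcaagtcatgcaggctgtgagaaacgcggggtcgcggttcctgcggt
MRPL12: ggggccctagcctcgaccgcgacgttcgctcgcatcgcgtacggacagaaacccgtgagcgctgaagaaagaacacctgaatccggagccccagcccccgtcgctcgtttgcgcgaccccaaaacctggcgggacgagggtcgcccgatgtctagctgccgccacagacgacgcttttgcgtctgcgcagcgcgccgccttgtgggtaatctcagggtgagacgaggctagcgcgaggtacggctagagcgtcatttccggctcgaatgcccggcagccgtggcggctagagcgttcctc

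Of the same 69 genes, 22 (31.9%) had another gene starting within 1000 bases on the opposite strand, as had 24.7% of other genes. MRPS11 and MRPL46, from different subunits, start 320 bases apart and run away from each other. MRPS11 was called higher, and MRPL46 had a change of 0.09 (edgeR adjusted p = 0.582). MRPS12, called higher, faces SARS2, a mitochondrial seryl-tRNA synthetase gene with a change of −0.01 (edgeR adjusted p = 0.973). The gene spans of 17 members overlapped that of another gene with counts, among them the called genes MRPL14 and MRPS16. MRPS34, MRPS24, MRPS6, MRPS25 and MRPL37, named above for their level, were also among them. The other gene averaged 1807 counts at MRPS6 (SLC5A3), 433 at MRPS24 (URGCP-MRPS24) and 45.7 at MRPS34 (EME2). Reads could be shared where the transcripts overlap, since the strand setting is not given in the sources used here. Overlap of exons was not examined. Pseudogene symbols exist for 41 members, 8 of the 13 called genes among them, and 3 of these pseudogenes were in the files, so that reads from the others could have been counted to their parent gene.

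Other genes of mitochondrial gene expression were described by lists, in the mean of both guides against sgCtrl, for which 6.92% of all genes were called higher and 6.95% lower. Of 27 assembly factors of the mitochondrial ribosome, 1 rose and 0 fell, with a median change of 0.04 on the log2 scale. It was FASTKD2, an RNA-binding protein needed for the large subunit's ribosomal RNA, at 57.0, 57.2 and 54.3 CPM with sg2, 56.4, 53.9 and 54.2 CPM with sg4, and 46.1, 48.9 and 49.4 CPM with sgCtrl (0.21 ± 0.061, SE, edgeR adjusted p = 0.0250). Of the 5 ribosomal proteins without an MRP symbol, DAP3, AURKAIP1, CHCHD1, PTCD3 and GADD45GIP1, 0 were called by edgeR or DESeq2 in that comparison, with changes from −0.10 to 0.33, and CHCHD1 alone had an unadjusted edgeR p under 0.05. With sg4 alone CHCHD1 was called higher (0.41 ± 0.13, SE, edgeR adjusted p = 0.0448), and DESeq2 also called 1 of the 5. At matched length 0 of the 5 were called with sg4. Of 18 translation factors and partners, 2 rose and 0 fell: the elongation factor gene GFM1 (0.21 ± 0.061, SE, edgeR adjusted p = 0.0195) and SLIRP, which binds mitochondrial mRNAs (0.41 ± 0.11, edgeR adjusted p = 0.0115). SLIRP has an effective length of 130 bases, and at matched length its change was 0.13 and not called (edgeR adjusted p = 0.465). Of 20 genes that charge mitochondrial tRNAs, 0 rose and 1 fell, the alanyl-tRNA synthetase gene AARS2 (−0.33 ± 0.090, SE, edgeR adjusted p = 0.0165). Of 11 genes of mitochondrial DNA transcription and replication, 2 rose and 0 fell, the DNA polymerase gene POLG (0.23 ± 0.056, SE, edgeR adjusted p = 0.00776) and the single-strand binding protein gene SSBP1 (0.24 ± 0.058, edgeR adjusted p = 0.00734). At matched length SSBP1 was at 0.14 and not called (edgeR adjusted p = 0.0822). Of 10 regulators of mitochondrial biogenesis, MYC rose (0.20 ± 0.053, SE, edgeR adjusted p = 0.0120) and GABPB2, a subunit of GABP, fell (−0.49 ± 0.16, edgeR adjusted p = 0.0359). NRF1, GABPA and YY1 were not called, with changes of −0.13, 0.03 and 0.06. Each of these 8 calls was lost in at least 1 fit without a library. Without sgCtrl library 1, the calls of FASTKD2, GFM1, SLIRP, AARS2, POLG and GABPB2 were lost (edgeR adjusted p from 0.0674 to 0.172). Without sgCtrl library 3, those of FASTKD2, GFM1, SLIRP, AARS2, SSBP1, GABPB2 and MYC were lost (edgeR adjusted p from 0.0529 to 0.174). FASTKD2 and MYC also lost theirs without sgCtrl library 2 (edgeR adjusted p of 0.0578 and 0.0623), FASTKD2 without sg2 library 1 (0.0537), and GABPB2 without sg2 library 2, sg2 library 3 or sg4 library 3 (0.0653, 0.0571 and 0.0695).

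The family was also set beside 2 other families, in the mean of both guides. In that comparison 6.92% of all genes were called higher and 6.95% lower, and at matched length 7.38% and 6.78%. Of 77 cytosolic ribosomal protein genes, 54 were called higher and 0 lower (median change 0.21), and at matched length 29 higher and 2 lower (median 0.09). Of 76 nuclear-encoded respiratory chain subunit genes, 27 were called higher and 0 lower (median 0.12), and at matched length 11 higher and 3 lower (median 0.03). The mitochondrial ribosomal protein genes, with 12 higher and 1 lower and a median of 0.10, or 9 higher and 2 lower and a median of 0.04 at matched length, had the fewest calls of the 3 families in both fits. By median at matched length, the respiratory chain genes were the lowest of the 3. The families were not matched for count depth, and no test was made between them.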

How the data were processed

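RNA-seq of 9 libraries in 3 groups of 3 was used, and the peak lists were not used here. Per the file headers, the authors' Salmon files list RefSeq transcripts with their TPM, estimated count and effective length. All estimated counts were whole numbers as deposited. Salmon, STAR 2.5.2b, cutadapt 1.12 and DESeq2 appear in the submitters' processing notes without roles, and the strand setting is not given in the sources used here. Estimated counts and deposited TPM were summed by gene, and 58031 of 60422 accessions (96.0%) matched the GRCh38.p14 gene table, used for names. The unmatched held 1.33% to 1.65% of a library. Counts of 13530 genes that passed filterByExpr were fitted with edgeR 4.0.16 (TMM, quasi-likelihood, R 4.3.3), with 2-sided tests and a threshold of 0.05 on p adjusted by Benjamini-Hochberg. The length offset was a loess curve (span 0.3) per library on log2 effective length. DESeq2 1.42.0, limma 3.58.1 on log2(TPM + 1), a replicate block, other filters and left-out libraries were alternatives. Members, lists and tests were chosen with earlier results of these data known. Named genes were the members called in the mean of both guides or with each guide separately, those that gained or lost a call at matched length, the 3 highest and 3 lowest by control TPM in each subunit, MRPS30, MRPS18A, and up to 3 called genes per list. Others were named after their values were seen.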

Additional observations from a re-analysis of the deposited data

How the results depend on the processing

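Relative to 5 members higher and 1 lower with sg2, 6 and 0 with sg4, 12 and 1 in the mean of both guides, and 2 and 0 with each guide separately, counts moved as follows, and the cause was not tested beyond what each fit changes. With the length offset the mean had 2 lower. Without sg4 replicates 2 and 3 and sgCtrl replicate 3, sg2 had 3 higher and 2 lower, sg4 1 and 1, the mean 2 higher, and each guide separately 0 higher and 1 lower. Limma on log2(TPM + 1), in which the median of all genes was −0.06 in the mean against −0.01, gave 2 higher with sg2, 2 with sg4, 3 in the mean and 0 with each. Of all genes, 1.69%, 1.32% and 2.35% were called higher with sg2, with sg4 and in the mean in that fit. For the fits with libraries left out, no such share is given here, so their counts cannot be set beside all genes. Without sg2 replicates 1 and 3, a setting chosen after seeing the data, sg2 had 2 higher and 0 lower, the mean 4 and 0, and each guide 1 higher, and the large minus small difference in medians was 0.0058 against 0.0458. Effective length per library as an offset, also chosen after seeing the data, gave 1 with each guide. Same-numbered libraries did not pair (correlations of their deviations from −0.141 to 0.0525, and 1 library correlated best with its own number). With a replicate block sg2 had 3 higher and the mean 7 higher and 0 lower, and the block with the length offset gave 1 with each guide. Without 1 library, sg2 ranged from 1 to 7 higher and 0 to 1 lower, sg4 from 1 to 8 higher and 0 lower, the mean from 2 to 13 higher and 0 to 1 lower, each guide separately from 0 to 2 higher, and the difference in medians from 0.01 to 0.04. The control ratio of large to small of 1.85 was 2.05 with MRPS30 and MRPS18A as large and 1.54 in CPM. JMJD6 stayed between −1.62 and −1.51 in all alternatives run. In these alternatives the median change of the members in the mean of both guides lay between 0.03 and 0.12, and no named gene called in the mean changed sign. DESeq2 kept 13 of 13 called members. The lowest count of a member in a library was 118, and the labels state no separate cultures.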
